A study of Mus musculus with 28 samples.

Results

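Major histocompatibility complex (MHC) class I presentation was followed through 10 genes, chosen by name, of the 40021 genes listed for sorted mouse retinal microglia. All 10 passed the filter on low values, which asked that 5 or more of the 28 retinas reach an RPKM of 1. RPKM scales reads to the length of the transcript and to the size of the library. The samples were microglia from single retinas of male Cx3cr1CreER:R26-tdTomato heterozygotes on C57BL/6, whose Cre recombinase is expressed from the Cx3cr1 gene and switches on a red reporter after tamoxifen. All groups carried these alleles and received tamoxifen. Of the 28 retinas, 10 came from naïve mice. Another 6 were taken 4 h, 5 were taken 18 h and 7 were taken 2 weeks after intravitreal lipopolysaccharide (LPS) in phosphate-buffered saline, which causes endotoxin-induced uveitis (EIU). The naïve eyes were not injected, so the injection and the LPS cannot be told apart here. The labels name the eye side and 1 of 2 experiments for each retina but not the mouse, so the replicates may include both eyes of 1 animal and p-values measure the spread between retinas.

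Class I molecules carry peptides from inside the cell to its surface, where CD8+ T cells and natural killer cells read them. A heavy chain, encoded by an H2 gene in the mouse, pairs with the light chain beta 2-microglobulin. The peptides are cut by the proteasome, pumped into the endoplasmic reticulum by the TAP transporter, and loaded onto the heavy chain with the help of tapasin. Resting microglia are known for low class I levels, and interferons and NF-kappa B signalling are known to raise class I transcription, in part through the transactivator NLRC5. Apart from B2m on chromosome 2 and Nlrc5 on chromosome 8, the members lie on chromosome 17, most of them within the MHC.

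Promoters of members were read for the kinds of sites through which NF-kappa B and interferon-regulated factors are known to act on class I genes. RefSeq promoters (GRCm38.p6, from 250 bases before to 50 bases after the start) matched 8 of the 10 members, leaving out Tap2 and Nlrc5. For 4 of them, the 180 bases before the start are given 5′ to 3′. Capitals mark matches on either strand to the kappa B consensus, to the core of the interferon-stimulated response element (the letters GAAA repeated with 2 bases between), and to GTTTCACTTCT. The last is the longest run shared by the promoters of H2-K1, H2-D1, H2-Q7 and H2-M3, part of what is known as the class I interferon consensus sequence, and was added after the promoters had been read. Its presence in those promoters follows from how it was chosen.
B2m (chr2:122147507-122147686, plus strand): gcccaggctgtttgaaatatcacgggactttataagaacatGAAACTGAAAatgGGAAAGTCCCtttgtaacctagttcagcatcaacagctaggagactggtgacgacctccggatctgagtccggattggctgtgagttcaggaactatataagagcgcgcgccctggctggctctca
H2-K1 (chr17:34000348-34000527, minus strand): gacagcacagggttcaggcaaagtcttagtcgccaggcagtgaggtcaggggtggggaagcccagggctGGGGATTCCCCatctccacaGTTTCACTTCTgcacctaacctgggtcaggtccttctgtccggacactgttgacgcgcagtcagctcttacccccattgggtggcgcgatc
H2-Q7 (chr17:35438975-35439154, plus strand): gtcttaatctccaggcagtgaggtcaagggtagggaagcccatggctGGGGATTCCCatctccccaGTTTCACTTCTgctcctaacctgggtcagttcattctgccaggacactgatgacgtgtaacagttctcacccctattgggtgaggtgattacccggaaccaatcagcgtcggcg
H2-M3 (chr17:37270054-37270233, plus strand): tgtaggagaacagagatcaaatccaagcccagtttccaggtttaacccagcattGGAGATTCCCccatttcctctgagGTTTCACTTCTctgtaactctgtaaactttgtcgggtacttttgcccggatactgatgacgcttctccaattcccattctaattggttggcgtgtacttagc
The kappa B consensus was matched in the promoters of B2m, H2-K1, H2-D1, H2-Q7 and H2-M3, and in 8.459% of all 32851 promoters in the table. At H2-K1 and H2-D1 the run GGGGATTCCCC gave 2 overlapping matches, whereas H2-Q7 carried the single match GGGGATTCCC. All of these read on both strands. The shared run followed the kappa B match by 20 bases (start to start) at H2-K1 and H2-D1, by 19 bases at H2-Q7 and by 24 bases at H2-M3. Only 0.058% of all promoters held this run, which was absent from the B2m window. There the response element core lay 13 bases before the kappa B match. The core was matched in 3.443% of all promoters, and among the members also in H2-T23 on the opposite strand. No match to these 3 motifs was found in the windows of Tap1 and Tapbp. The CCAAT box, matched in 37.408% of all promoters, was found in all 8 members on one strand or the other, and TGACG, matched in 20.812%, in B2m, H2-K1, H2-D1, H2-Q7, H2-M3 and Tap1. The interferon-gamma activated site (TTCNNNGAA, 8.298% of all promoters) was matched only at H2-M3 among the members. H2-D1, which was not called at any time, held the kappa B match and the shared run at the same spacing as H2-K1. These matches describe letters and not binding, and their part in the changes was not tested.

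The deposited table gave between 7510000 and 19700000 alignments per retina, and between 6552 and 11825 genes reached an RPKM of 1. All 11 microglia markers passed the filter. At 4 h 4 of them were called lower (4.39% of all genes), and at 18 h 6 (1.85% of all genes), with none called at 2 weeks. Genes of rods were read in every retina, with the summed RPKM of 8 rod genes between 251 and 6544. Of the leukocyte lists, 1 of 10 neutrophil, 3 of 8 monocyte, 1 of 12 lymphocyte and 2 of 7 dendritic cell genes passed the filter. A few retinas stood apart. Naïve retina 1 had the most genes at an RPKM of 1 (11825) and 18 h retina 4 the fewest of its group (6969). In bulk RNA, a change in the share of cells with class I transcripts and a change per cell cannot be told apart.

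In naïve retinas the class I genes spanned a wide range of levels. The light chain gene B2m had a median of 1952 RPKM (lowest 1223, highest 6149), above every other member in all 10 retinas. The classical heavy chain genes followed, H2-D1 with a median of 156 RPKM and H2-K1 with 81.9 RPKM. H2-D1 exceeded H2-K1 in 9 of 10 retinas, although their ranges overlapped. H2-M3 (46.9 RPKM) and H2-T23 (31.9 RPKM) came next and overlapped, with H2-M3 the higher in 7 of 10. Tapbp had a median of 11.7 RPKM. The remaining members, H2-Q7 (2.77 RPKM), Tap2 (2.23 RPKM), Tap1 (1.54 RPKM) and Nlrc5 (0.203 RPKM), were low and overlapped with each other. B2m stayed first, H2-D1 next and H2-K1 after it by median in each of the 4 groups. H2-Q7 came above Tapbp by median at 4 h and 18 h only. At 4 h it was the higher of the pair in 5 of 6 retinas and at 18 h in 4 of 5.

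**Figure D1:**
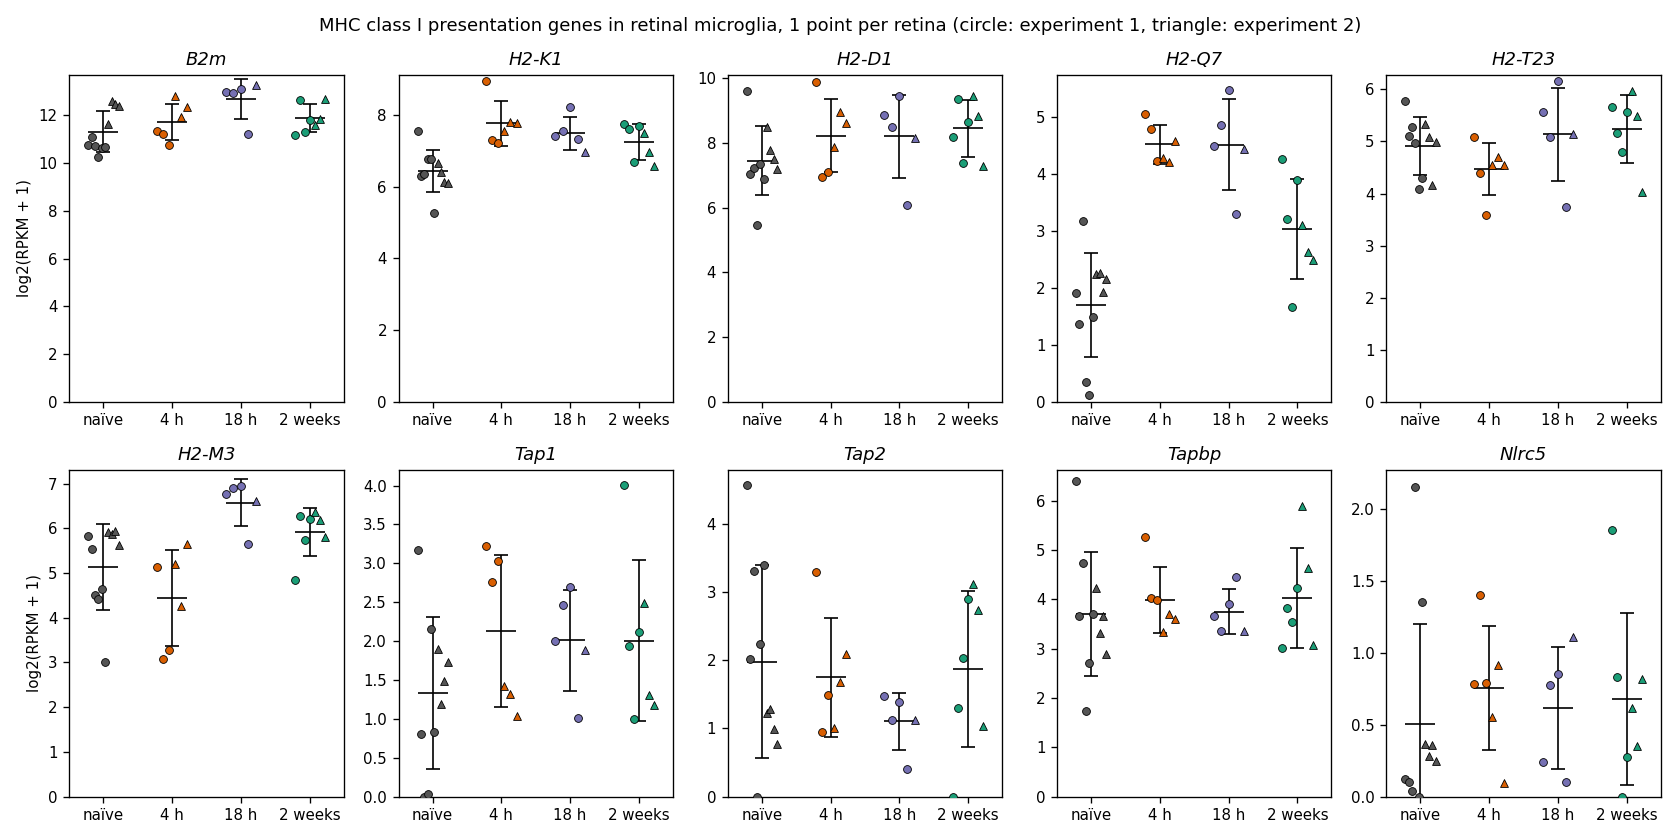
Level of each class I member in each retina, as log2(RPKM + 1), for the naïve, 4 h, 18 h and 2-week groups (n = 10, 6, 5 and 7). Each point is 1 retina, circles are experiment 1 and triangles experiment 2, and the bars give the mean and SD of each group. All 6 retinas at 4 h and all 5 at 18 h lie above all 10 naïve retinas for H2-Q7, and for no other member. The share of all genes that separate in this way was not counted.

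Changes were tested with limma on log2(RPKM + 1) in 1 fit of all 4 groups, and a gene was called when its Benjamini-Hochberg adjusted p over 13164 genes was at most 0.05 and its fold change, of RPKM + 1, at least 2. At 4 h, 2 of 10 members were called higher (H2-Q7 and H2-K1) and none lower, where 3.68% of all genes were called higher and 4.39% lower. At 18 h, 2 of 10 were called higher (H2-Q7 and B2m) and none lower, against 2.84% and 1.85% of all genes. At 2 weeks no member was called, where 0.0076% of all genes were called higher and 0% lower. By limma 2 members had an unadjusted p under 0.05, a share that was not counted over all genes. The median log2 fold change of the members was 0.34 at 4 h, 0.72 at 18 h and 0.61 at 2 weeks, beside -0.11, -0.08 and 0.07 over all genes tested. The 3 comparisons share the naïve retinas. The members were chosen with earlier results of these data known, so their shares and medians beside those of all genes are a description.

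**Figure D2:**
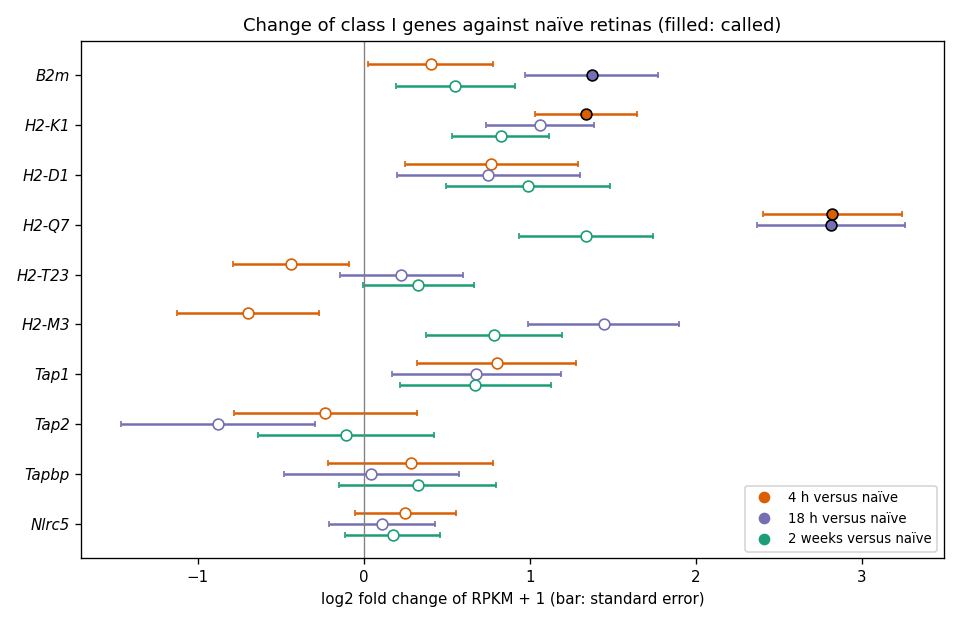
Log2 fold change of RPKM + 1 of the 10 members, each of the 3 times against naïve retinas. Points are limma estimates, bars their standard errors, and filled points were called. H2-Q7 is filled at 4 h (2.82) and 18 h (2.81), H2-K1 at 4 h (1.34) and B2m at 18 h (1.37), and no point is filled at 2 weeks.

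H2-Q7, a class Ib heavy chain gene of the Qa-2 family at chr17:35439155-35443773 (plus strand), changed the most of the members. It was at 0.0912 to 7.99 RPKM in naïve retinas (median 2.77) and at 17.6 to 32.1 RPKM at 4 h (median 20.7). The 18 h retinas read 21.5, 28.0, 43.5, 8.78 and 20.8 RPKM. Neither the 4 h nor the 18 h group overlapped with the naïve retinas, with the lowest 18 h value in retina 4. For this and the separations between groups given below, the share of all genes that separate likewise was not counted. The log2 fold change was 2.82 ± 0.42 (SE) at 4 h (limma, adjusted p = 1.5e-05) and 2.81 ± 0.45 at 18 h (adjusted p = 1.1e-04). Without 18 h retina 4 the latter was 3.12 (adjusted p = 4.7e-05). Within experiment 1 alone the changes were 3.29 and 3.13, each called. Within experiment 2 alone the change was 2.21 at 4 h, called, and 2.30 at 18 h, where that experiment has 1 retina. Between 18 h and 4 h H2-Q7 differed by -0.01 ± 0.49 (adjusted p = 1.0). At 2 weeks it was at 2.18 to 18.2 RPKM (median 7.62), with 3 of 7 retinas above all naïve retinas. Its log2 difference from naïve was then 1.34 ± 0.40 (p = 0.0022 by limma, adjusted p = 1.0) and from 18 h -1.47 ± 0.48 (adjusted p = 0.098, but 0.047 without 18 h retina 4 and 0.049 without 2-week retina 1).

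H2-Q7 has near-identical neighbours, so its values are uncertain as a single gene. Of its 75-base windows, the length of the reads, 21.7% occurred exactly in another gene, with 13.6% shared with H2-Q6 and 8.14% with H2-Q5. The estimation used for these files could divide such reads between them. The log2 fold change of H2-Q6 was 3.78 ± 0.52 at 4 h (adjusted p = 3.8e-06) and 2.39 ± 0.55 at 18 h (adjusted p = 0.0069), and from 4 h to 18 h it differed by -1.39 ± 0.61 (p = 0.030 by limma, adjusted p = 0.23). The log2 fold change of H2-Q5 was 2.20 ± 0.40 (adjusted p = 3.0e-04) and 2.17 ± 0.43 (adjusted p = 0.0016) at these times. Added together, H2-Q6 and H2-Q7 were at 0.152 to 26.1 RPKM in naïve retinas (median 7.28) and at 51.9 to 143 RPKM at 4 h (median 82.5). At 18 h the sum was at 36.9 to 77.6 RPKM (median 42.2) and at 2 weeks at 5.16 to 41.4 RPKM (median 16.5). The medians were 11.3, 5.80 and 2.26 times that of naïve retinas. The pair together did not overlap with naïve retinas at 4 h or 18 h, which was not counted over other genes.

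H2-K1 encodes the classical heavy chain H-2K (chr17:33996017-34000347, minus strand) and shared 1.55% of its windows with other genes. Naïve retinas had 37.7 to 188 RPKM (median 81.9) and 4 h retinas 149 to 491 RPKM (median 203). At 4 h 3 of 6 retinas lay above the naïve range, whose top was retina 1, and the other 3 within it. H2-K1 rose by 1.34 ± 0.31 on the log2 scale at 4 h (adjusted p = 0.0035). The change was 1.10 (adjusted p = 0.020) without 4 h retina 1, the highest of its group, and 1.46 (adjusted p = 7.9e-04) without naïve retina 1. It was 1.32 in experiment 1 alone, where it was not called (adjusted p = 0.21), and 1.39 in experiment 2 alone (adjusted p = 0.0034). The 18 h retinas read 169, 188, 297, 160 and 123 RPKM, 2 of them above all naïve retinas. The log2 difference from naïve at 18 h was 1.06 ± 0.32 (adjusted p = 0.052), and it was called without naïve retina 1 (1.19, adjusted p = 0.018), naïve retina 4 (adjusted p = 0.045), 4 h retina 1 (0.034) or 2-week retina 1 (0.043). It was not called in 24 of the 28 fits with 1 retina left out, nor in 13 of the 14 other alternatives. The 18 h difference was 1.13 in experiment 1 alone (adjusted p = 0.29) and 0.63 in experiment 2 alone, which has a single 18 h retina. At 2 weeks the retinas were at 94.3 to 215 RPKM (median 182), a log2 difference of 0.83 ± 0.29 (p = 0.0081 by limma, adjusted p = 1.0), and 3 of 7 were above all naïve retinas.

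H2-D1, the classical heavy chain gene for H-2D (chr17:35262730-35267499, plus strand), had higher levels than H2-K1, spread further and shared 7.10% of its windows with other genes. It was at 43.6 to 787 RPKM in naïve retinas (median 156), at 123 to 948 RPKM at 4 h (median 312) and at 155 to 705 RPKM at 2 weeks (median 403). The 18 h retinas read 462, 361, 695, 66.9 and 287 RPKM. Every group overlapped with the naïve retinas. The log2 differences were 0.77 ± 0.52 (adjusted p = 0.43), 0.75 ± 0.55 (adjusted p = 0.52) and 0.99 ± 0.50 (adjusted p = 1.0) at the 3 times in order. Without naïve retina 1 they were 1.01, 0.99 and 1.23, none of them called.

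H2-T23 encodes Qa-1, a class Ib molecule that presents signal peptides of other class I chains to natural killer cell receptors (chr17:36029773-36032855, minus strand). The antisense gene A930015D03Rik spans the locus at no more than 9.65 RPKM. Of the 75-base windows of H2-T23, 13.1% occurred in other genes, foremost Gm7030 (6.15%), Gm11127 (5.15%) and H2-D1 (5.08%). Naïve retinas had 15.9 to 53.9 RPKM (median 31.9), 4 h retinas 10.9 to 32.8 RPKM (median 22.3) and 2-week retinas 15.3 to 61.5 RPKM (median 43.9). The 18 h retinas read 46.1, 33.0, 70.1, 12.4 and 34.3 RPKM. The groups overlapped throughout. The log2 differences from naïve were -0.44 ± 0.35, 0.23 ± 0.37 and 0.33 ± 0.33, with adjusted p of 0.53, 0.81 and 1.0.

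H2-M3, whose product presents N-formylated peptides such as those of bacteria and mitochondria (chr17:37270220-37274484, plus strand), differed most between the 2 early times. It shared none of its windows with another gene. Its levels were 7.41 to 48.9 RPKM at 4 h (median 26.3) and 7.06 to 60.2 RPKM in naïve retinas (median 46.9). The 18 h retinas read 108, 119, 121, 49.3 and 96.9 RPKM, all above every 4 h retina, and all but retina 4 above every naïve retina. From 4 h to 18 h H2-M3 rose by 2.14 ± 0.50 on the log2 scale (adjusted p = 0.0076), the only member called in that comparison, in which 2.92% of all genes were called higher and 2.51% lower. The difference was 2.37 without 18 h retina 4 (adjusted p = 0.0053). It was 2.73 in experiment 1 alone (adjusted p = 0.042) and 1.57 in experiment 2 alone (adjusted p = 0.070), which has a single 18 h retina. Against naïve retinas the log2 difference was -0.69 ± 0.43 at 4 h (adjusted p = 0.38) and 1.45 ± 0.45 at 18 h (adjusted p = 0.060). The latter was called with experiment as a covariate (1.61, adjusted p = 0.014), and without 18 h retina 4 (1.68, adjusted p = 0.037), naïve retina 7 (0.050), 4 h retina 2 (0.048) or 2-week retina 1 (0.046). It was not called in 24 of the 28 fits with 1 retina left out, nor in 10 of the 14 other alternatives. The 18 h difference was 1.91 in experiment 1 alone (adjusted p = 0.10) and 0.78 in experiment 2 alone. At 2 weeks H2-M3 was at 27.5 to 81.8 RPKM (median 72.0), 0.79 ± 0.41 above naïve (adjusted p = 1.0), with 4 of 7 retinas above all naïve retinas.

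B2m, the light chain gene shared by all class I heavy chains (chr2:122147686-122153083, plus strand), differed between the experiments before any injection. It shared none of its windows with another gene, although Patl2 spans it on the other strand at no more than 3.42 RPKM. In naïve retinas of experiment 1 it was at 1678 ± 301 RPKM (SD, n = 6) and in those of experiment 2 at 5097 ± 1319 RPKM (SD, n = 4), without overlap. The log2 difference was 1.58 ± 0.34 (adjusted p = 0.020, but 0.052 to 0.094 without naïve retina 4, 8, 9 or 10), a comparison added after the values had been seen, in which 1.56% of all genes were called higher in experiment 2 and 0.228% lower. Naïve retinas of experiment 2 also had more genes at an RPKM of 1, with a median of 11319.5 against 8349.5, and 2 of 8 rod genes were called higher in them. The part of these in the B2m difference was not tested.

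At 4 h B2m was at 2230 ± 456 RPKM in experiment 1 and at 5416 ± 1624 RPKM in experiment 2 (SD, n = 3 each), and its log2 difference from naïve was 0.41 ± 0.38 over both (adjusted p = 0.60), 0.41 in experiment 1 alone and 0.09 in experiment 2 alone. At 18 h the retinas of experiment 1 read 8154, 7847, 8738 and 2362 RPKM and that of experiment 2 read 9803 RPKM. All but retina 4 exceeded every naïve retina of either experiment. B2m rose by 1.37 ± 0.40 at 18 h (adjusted p = 0.039). The change was 1.75 without 18 h retina 4 (adjusted p = 0.0070) and 1.86 in experiment 1 alone (adjusted p = 0.012). The call was lost without any 1 of naïve retinas 1 to 6 or of 18 h retinas 1, 2, 3 and 5 (adjusted p = 0.056 to 0.12). The change was 0.99 in experiment 2 alone (adjusted p = 0.41), and it was not called after scaling to equal summed RPKM (1.04, adjusted p = 0.13) or quantile normalisation (0.74, adjusted p = 0.38). At 2 weeks B2m was at 2349 to 6699 RPKM (median 3619), 0.55 ± 0.36 above naïve (adjusted p = 1.0), with 1.05 in experiment 1 alone and -0.21 in experiment 2 alone. Between 18 h and 4 h the difference was 0.97 ± 0.44 (adjusted p = 0.26), and with experiment as a covariate it was 1.28 and called (adjusted p = 0.018). The experiments are unevenly spread over these groups, with 3 retinas of each at 4 h and 4 against 1 at 18 h.

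**Figure D3:**
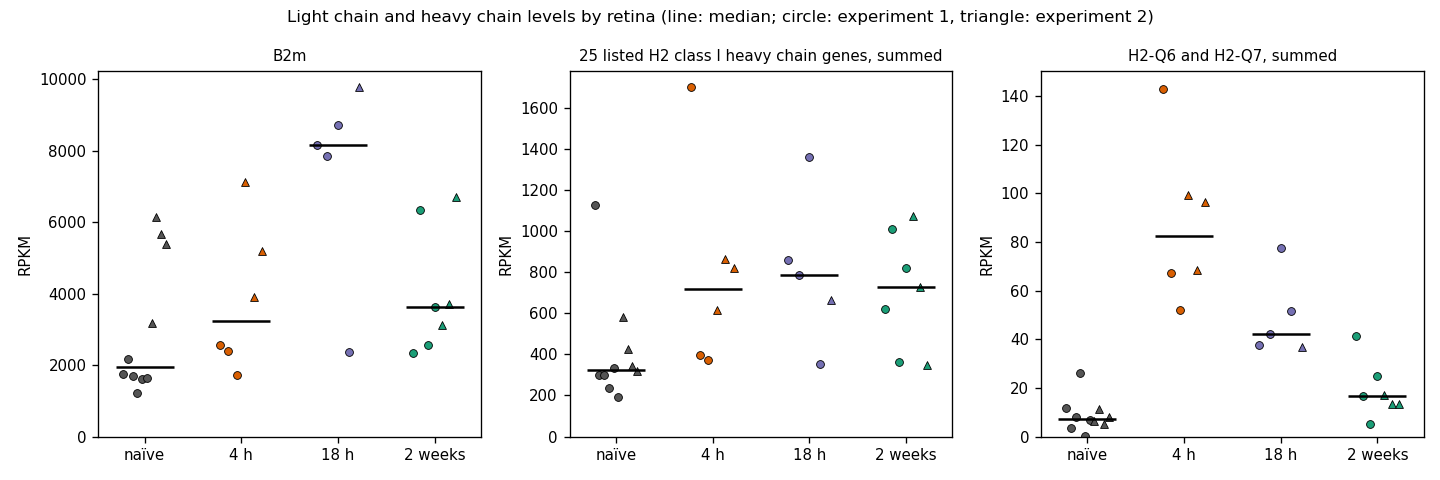
RPKM in each retina of B2m, of the sum of 25 H2 class I heavy chain genes listed in the table, and of H2-Q6 plus H2-Q7, by group on linear axes from 0. Circles are experiment 1, triangles experiment 2, and lines group medians. The naïve retinas of experiment 2 lie above those of experiment 1 for B2m, and the median of H2-Q6 plus H2-Q7 goes from 7.28 (naïve) to 82.5 RPKM at 4 h.

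Summed over the 25 H2 heavy chain genes of the table, the group medians of class I RPKM were 325 (naïve), 720 (4 h), 785 (18 h) and 728 (2 weeks). The medians were 2.21, 2.41 and 2.24 times the naïve one, while the ranges overlapped (193 to 1128 RPKM in naïve retinas and 371 to 1703, 355 to 1360 and 350 to 1072 RPKM after injection). Most of each sum came from H2-D1 and H2-K1, so it followed the same retinas. This sum was not tested.

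The peptide transporter and its partner were low and no group of theirs was called. Tap1, a subunit of the transporter (chr17:34187553-34197225, plus strand), was at 0 to 7.98 RPKM in naïve retinas (median 1.54) and at 1.05 to 8.32 RPKM at 4 h (median 3.73). At 18 h it read 3.00, 4.50, 5.49, 1.01 and 2.68 RPKM, and at 2 weeks it was at 0.995 to 15.1 RPKM (median 2.81). The log2 differences were 0.80 ± 0.48, 0.68 ± 0.51 and 0.67 ± 0.46, with adjusted p of 0.36, 0.53 and 1.0. Its 4 h retinas divided by experiment, with 7.09 ± 1.27 RPKM in experiment 1 and 1.41 ± 0.329 RPKM in experiment 2 (SD, n = 3 each), beside 2.16 ± 3.12 (n = 6) and 2.04 ± 0.634 RPKM (n = 4) in naïve retinas. The 4 h change in experiment 2 minus that in experiment 1 was -2.16 ± 0.91 (p = 0.025 by limma, adjusted p = 0.91). No member was called in that comparison, where 0.0076% of all genes were called higher and 0.0912% lower. Tap1 was the only member with an unadjusted p under 0.05, a share that was not counted over all genes.

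Tap2, the other transporter subunit (chr17:34203527-34216321, plus strand), was listed at 0 in 1 naïve and in 1 2-week retina. It was at 0 to 22.7 RPKM in naïve retinas (median 2.23), at 0.919 to 8.81 RPKM at 4 h (median 2.01) and at 0 to 7.68 RPKM at 2 weeks (median 3.10). The 18 h retinas lay between 0.326 and 1.77 RPKM. Every injected retina lay within the naïve range, and the log2 differences were -0.23 ± 0.55, -0.88 ± 0.59 and -0.11 ± 0.53 (adjusted p = 0.87, 0.47 and 1.0). Tapbp, which encodes tapasin, the bridge between the transporter and the empty heavy chain (chr17:33915899-33929292, plus strand), was at 2.32 to 83.6 RPKM in naïve retinas (median 11.7). It was at 9.15 to 37.4 RPKM at 4 h, 9.30 to 21.1 at 18 h and 7.08 to 58.3 at 2 weeks, again within the naïve range. Its log2 differences were 0.28 ± 0.50, 0.05 ± 0.53 and 0.33 ± 0.47 (adjusted p = 0.81, 0.98 and 1.0). Reads of Tapbp could also stem from the antisense gene Gm19412, with which it shared 16.5% of its windows, and those of Tap1 from Psmb9 (4.79%). Tap2 shared 8.97% of its windows with other genes, foremost Gm15821 (7.01%).

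Nlrc5, the class I transactivator (chr8:94434356-94527272, plus strand), was near the floor of the table, with 5 retinas at an RPKM of 1 or more, the fewest the filter allows. It was at 0 to 3.45 RPKM in naïve retinas (median 0.203), at 0.0661 to 1.63 RPKM at 4 h (median 0.723), at 0.0726 to 1.16 RPKM at 18 h (median 0.710) and at 0 to 2.62 RPKM at 2 weeks (median 0.529). No injected retina left the naïve range, and the log2 differences of 0.25 ± 0.30, 0.11 ± 0.32 and 0.18 ± 0.29 had adjusted p of 0.70, 0.90 and 1.0. Among naïve retinas only retina 4 (3.45 RPKM) and retina 6 (1.56 RPKM) reached an RPKM of 1. Values this far under the pseudocount of 1 understate any fold change. Nlrc5 was not called in any alternative that kept it, a pseudocount of 0.1 among them. Whether it changed cannot be decided from values this low.

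From 18 h to 2 weeks no member was called, where 1.1% of all genes were called higher and 1.55% lower. By limma 1 member (H2-Q7) had an unadjusted p under 0.05, a share that was not counted over all genes. The members' median log2 difference was 0.03 beside 0.16 over all genes.

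The wider class I pathway was read from 3 lists, also chosen with earlier results of these data known. Over all genes tested, 3.68% were called higher at 4 h, 2.84% at 18 h and 0.0076% at 2 weeks. The median log2 fold change over all genes was -0.11, -0.08 and 0.07 at these times. Of 25 other class I and class I-like heavy chain genes 10 passed the filter. Of these 2 were called higher at 4 h (H2-Q6 and H2-Q5) and 4 at 18 h, none lower, and none at 2 weeks. The other 2 at 18 h were H2-T22, a ligand of gamma delta T cells, at 2.19 ± 0.54 (adjusted p = 0.012), and H2-M2 at 2.89 ± 0.79 (adjusted p = 0.027). H2-M2 had a median of 0 in naïve retinas with 1 at 16.6 RPKM, and spread from 0.965 to 46.6 RPKM at 18 h. Both were named after their values had been seen. The list's median log2 fold change was 0.48, 0.87 and 0.56 at the 3 times.

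Assembly and peptide supply took in 15 genes of chaperones, the translocon, the trimming peptidase and inducible proteasome parts, and all passed the filter. At 4 h 2 were called higher (3.68% of all genes), at 18 h 4 (2.84% of all genes), and at 2 weeks none, with no gene of the list called lower against naïve. Psme2, a subunit of the proteasome activator PA28, had medians of 97.8 (naïve), 144 (4 h), 458 (18 h) and 100.1 RPKM (2 weeks). It rose by 1.06 ± 0.33 at 4 h (adjusted p = 0.038) and by 2.34 ± 0.35 at 18 h (adjusted p = 4.2e-05). At 18 h all 5 retinas (359 to 562 RPKM) lay above the naïve range (26.6 to 147 RPKM), and the share of all genes that do so was not counted. Its partner subunit Psme1 rose by 1.46 ± 0.33 at 18 h (adjusted p = 0.0057). The endoplasmic reticulum chaperone gene Hspa5 rose by 1.08 ± 0.35 at 4 h (adjusted p = 0.048) and by 1.56 ± 0.37 at 18 h (adjusted p = 0.0089), and the immunoproteasome gene Psmb10 by 1.23 ± 0.36 at 18 h (adjusted p = 0.044). The list's median log2 fold change was -0.33 at 4 h and 0.67 at 18 h. From 4 h to 18 h 5 of the 15 were called higher, beside 2.92% of all genes. They included Psmb8, another immunoproteasome gene, at 1.67 ± 0.38 (adjusted p = 0.0055). From 18 h to 2 weeks 3 were called lower (Psme2, Psme1 and Hspa5), beside 1.55% of all genes.

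Of 16 factors that act on class I promoters, all past the filter, 2 were called higher at 4 h (3.68% of all genes) and none at 18 h or 2 weeks. Irf1, an interferon regulatory factor, rose by 2.71 ± 0.63 at 4 h (adjusted p = 0.0043), from 0.0295 to 10.7 RPKM in naïve retinas to 13.5 to 99.0 RPKM. Nfkb1, which encodes an NF-kappa B subunit, rose by 1.34 ± 0.31 (adjusted p = 0.0037), from a median of 4.95 to 11.8 RPKM. Both fell from 4 h to 18 h, Irf1 by 2.79 ± 0.74 on the log2 scale (adjusted p = 0.020) and Nfkb1 by 2.07 ± 0.36 (adjusted p = 2.8e-04). At 18 h Irf1 was at 0.0222 to 9.57 RPKM, with no retina above the naïve range. Factors and members were not tested against each other.

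**Figure D4:**
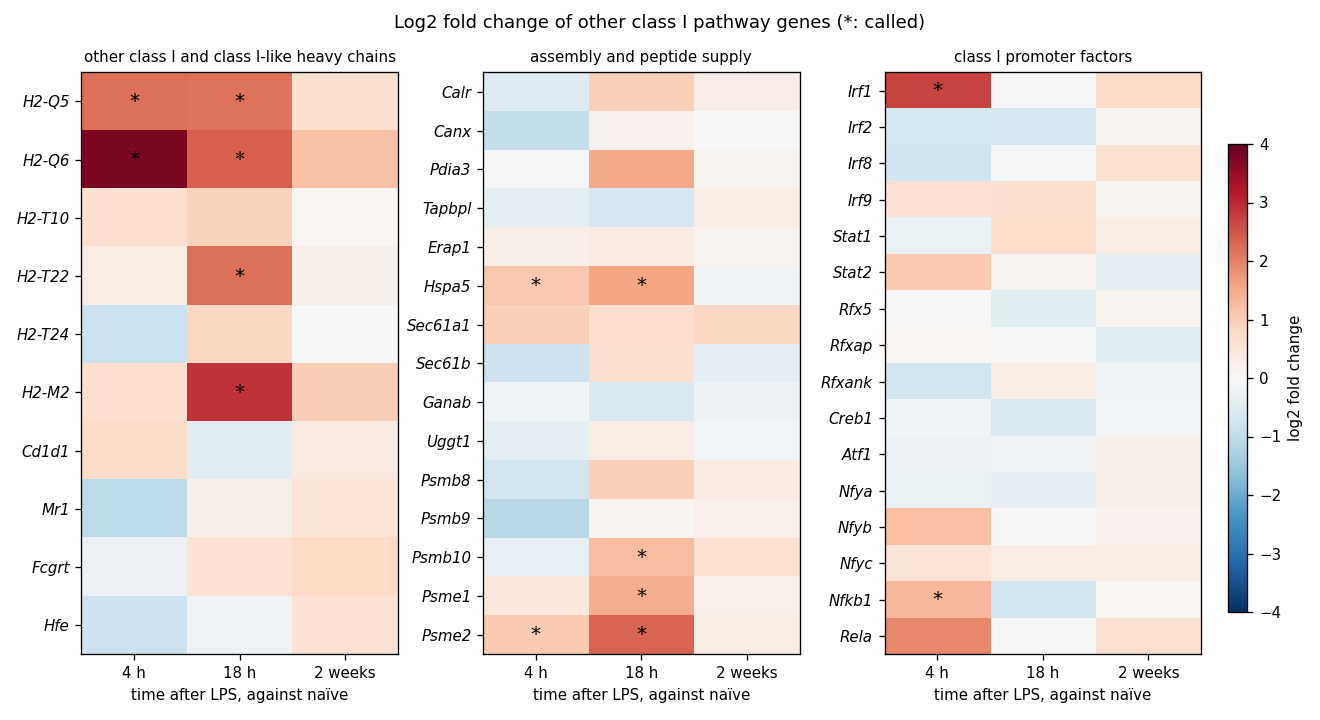
Log2 fold change of RPKM + 1 at each of the 3 times against naïve retinas for the genes of 3 class I pathway lists that passed the filter (10, 15 and 16 genes). Red is higher and blue lower than naïve, and an asterisk marks a called gene. Asterisks stand in the 4 h and 18 h columns for the heavy chains and for assembly, in the 4 h column alone for the promoter factors, and in no 2-week column.

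Some genes of the lists of other leukocytes differed as well. At 18 h the summed RPKM of the 8 monocyte genes was 147 to 322, against 13.7 to 76.9 in naïve retinas. Of the 3 monocyte genes tested 1 was called higher and none lower, with log2 differences from -1.92 to 3.28. Most of the sum was Ms4a4c, at 134 to 315 RPKM at 18 h and 8.59 to 56.9 RPKM in naïve retinas, while Ly6c2 reached at most 4.68 RPKM and Ccr2 at most 1.15 RPKM at 18 h. The 12 lymphocyte genes summed to 29.1 to 299 RPKM at 18 h and 20.2 to 81.3 RPKM in naïve retinas. Gzma, a granzyme gene of natural killer and cytotoxic T cells, was listed at 0 in all naïve retinas and at 0 to 238 RPKM at 18 h, where 3 of 5 retinas reached 1 RPKM, and Klrb1c, a natural killer cell receptor gene, reached 18.4 RPKM at 18 h. Neither passed the filter, and the 1 lymphocyte gene tested was not called at 18 h (0.04) and was called lower at 4 h (-1.56). The 1 neutrophil gene tested was called at none of the 3 times, and the 9 neutrophil genes in the table summed to 2.86 to 27.5 RPKM at 18 h and 5.60 to 83.0 RPKM in naïve retinas. At 4 h the monocyte genes summed to 10.5 to 174 RPKM (median 18.6, naïve 36.6) and the lymphocyte genes to 6.62 to 18.3 RPKM. The 7 dendritic cell genes summed to 19.9 to 189 RPKM at 4 h, 0.0738 to 16.0 RPKM at 18 h and 0.0373 to 13.04 RPKM in naïve retinas. Of the 2 tested, 1 was called higher at 4 h (5.51) and at 18 h (2.01), and the other was not called (-0.06 and -0.42). The genes in this paragraph were named with their values known. The part of such cells in the class I levels was not tested.

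For the members named here, the gene with the most similar level over the 28 retinas was found by Pearson correlation on log2(RPKM + 1), as a description. The retinas share groups and experiments, so these values have no test. H2-Q7 was most like Gpr18 (r = 0.85), H2-K1 like Pgs1 (r = 0.79), H2-D1 like Atp6ap1 (r = 0.92) and H2-T23 like Coro1b (r = 0.82). H2-M3 was most like Asah1 (r = 0.87) and B2m like Rps19 (r = 0.89). For the low members the nearest genes were Zgpat for Tap2 (r = 0.83), Ankrd46 for Tapbp (r = 0.83) and Gm12791 for Nlrc5 (r = 0.73). None of these nearest genes was in the 3 pathway lists.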

How the data were processed

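The authors demultiplexed reads with bcl2fastq 2.20, trimmed them, aligned them to mm10 with STAR 2.5.3a and assigned them to Ensembl transcripts by expectation-maximisation in Partek, so that 1 read may be split over similar genes. The authors deposited RPKM values, so the reads behind a value are unknown and exact zeros can be products of the estimation. RNA was amplified with SMART-Seq v4, which does not mark strand. Their tables of group comparisons (p-values and fold changes) were not used.

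Groups, experiment and eye came from the labels. Genes that reached RPKM 1 in 5 or more of 28 retinas (13164 of 40021) were tested on log2(RPKM + 1) with limma 3.58.1 in R 4.3.3, with all 4 groups in 1 fit, with a trend of the variance with the mean and p-values adjusted by Benjamini-Hochberg. Calls needed a fold change of 2 or more with adjusted p no higher than 0.05, and the difference between experiments at 4 h the adjusted p alone. Fold changes of low genes are understated by the pseudocount of 1. The members and lists were chosen with earlier results of these data known. All members were named, with up to 2 genes per list, comparison and direction by smallest p among those called, and the nearest gene of each member, of which that of Tap1 is not reported here. Psmb8, Psmb10, H2-T22 and H2-M2, and Hspa5 at 18 h, were named with their values known. The fit was tested on simulated data. A true log2 change of 1 was called in 14.7% of cases at 4 h, 12% at 18 h and 21.3% at 2 weeks. One of 2 was called in 78%, 76.7% and 86.7%. Members not called were therefore not shown to be unchanged. Gene positions are those of GRCm38 in GENCODE M21, and shared windows were counted as exact 75-base matches between transcripts. Motifs were searched on both strands. Figures were drawn in Python 3.11.15 with matplotlib 3.10.9.

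Alternatives were pseudocounts of 0.1 and 10, no filter, a filter at RPKM 5, experiment or eye as covariate, fits with a replicate block, with no other groups than those compared, or with a single experiment, equal summed RPKM, quantile normalisation, untransformed RPKM, the adjusted p alone, and each retina left out. A member not called in the fit described above was counted as changed by an alternative only when it was called there.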

Additional observations from a re-analysis of the deposited data

Results flagged for a closer look

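Of 40 groups of values (10 members in 4 groups), 6 held a retina whose gap to its nearest neighbour on the log2(RPKM + 1) scale was large for the range of its group by Dixon's test, where chance gives about 1 in 20. In 18 h retina 4, B2m was at 2360 RPKM (nearest retina 7850) and H2-M3 at 49.3 RPKM (nearest 96.9). In 4 h retina 1, H2-K1 was at 491 RPKM (nearest 222) and Tapbp at 37.4 RPKM (nearest 15.4). H2-M3 was at 7.06 RPKM in naïve retina 6 (nearest 20.5) and at 27.5 RPKM in 2-week retina 1 (nearest 52.0). In 18 h retina 4, 6969 genes reached an RPKM of 1, and in 2-week retina 1 6644, beside 6552 to 11825 over all retinas. No part of this in the class I values was tested.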

How the results depend on the processing

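H2-Q7 was called higher at 4 h under every alternative run, and at 18 h under every one with more than 1 retina at that time. Its log2 fold changes were 1.34 to 3.50 and 1.37 to 3.48, the lowest with a pseudocount of 10. Experiment 2 alone has 1 retina at 18 h, on which its results for that time rest. At 4 h 2 members were called in every fit except experiment 1 alone, where 1 was called because H2-K1 missed the threshold (1.32, adjusted p = 0.21). At 18 h 1 member was called with no filter, with only the groups compared, in experiment 2 alone, with equal summed RPKM and with quantile normalisation, since B2m was lost, and 4 with a filter at RPKM 5, since H2-K1 and H2-M3 were added. H2-M3 was also called at 18 h with a pseudocount of 10 (adjusted p = 0.026) and with experiment as a covariate (0.014). Leaving out 1 retina gave 1 to 4 members at 18 h. B2m lost its call without any 1 of naïve retinas 1 to 6 (adjusted p = 0.056 to 0.063) or of 18 h retinas 1, 2, 3 and 5 (0.11 to 0.12), and also on untransformed RPKM (adjusted p = 0.97), where H2-M3 was called. B2m kept its call with experiment as a covariate (1.58, adjusted p = 0.0011). From 4 h to 18 h 2 members were called with experiment as a covariate, B2m being added (1.28, adjusted p = 0.018), and 0 in experiment 2 alone. From 18 h to 2 weeks 1 member, H2-Q7, was called lower in experiment 2 alone, with quantile normalisation and on untransformed RPKM, and leaving out 1 retina gave 0 or 1. The difference of B2m between experiments in naïve retinas was not called without naïve retina 4, 8, 9 or 10 (0 to 1 member called over all retinas left out). At 2 weeks against naïve, and for the difference between experiments at 4 h, 0 members were called under every alternative run, and no call of a member changed direction. The cause of these changes was not tested beyond the number of genes or retinas in each fit. Leaving out a retina that is 1 of the 5 with Nlrc5 at an RPKM of 1 removes Nlrc5 from that fit.

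Retinas were also correlated over the genes tested after the group means had been subtracted. Those with the same replicate number in different groups had a median r of 0.035 (34 pairs, -0.33 to 0.70). Those with other numbers had 0.0054 (253 pairs, -0.55 to 0.69). Pairs of the same number mix the 2 experiments, so these medians cannot decide whether retinas were paired within an experiment. With the replicate number as a block the same number of members was called in each comparison as without it (2 at 4 h, 2 at 18 h, 0 at 2 weeks, 1 from 4 h to 18 h and 0 from 18 h to 2 weeks), with H2-Q7 at 3.02 and H2-K1 at 1.20 at 4 h, H2-Q7 at 2.98 and B2m at 2.05 at 18 h, and H2-M3 at 2.13 from 4 h to 18 h.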

Other observations

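The ratio of B2m RPKM to the summed RPKM of the 25 H2 heavy chain genes had a median of 6.45 in naïve retinas (1.54 to 17.0), 5.34 in 4 h retinas (1.51 to 11.5), 9.46 in 18 h retinas (6.43 to 14.8) and 5.08 in 2-week retinas (2.92 to 19.1). In naïve retinas it was 1.54 to 8.51 in experiment 1 and 5.44 to 17.0 in experiment 2. At 18 h the 4 retinas of experiment 1 were at 6.43 to 10.00 and the retina of experiment 2 at 14.8. This ratio was not tested.

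Among the other members, naïve retinas of experiment 2 against experiment 1 differed in H2-M3 by 1.18 ± 0.49 on the log2 scale (adjusted p = 0.16 by limma) and in Tap2 by -1.52 ± 0.66 (adjusted p = 0.19). H2-M3 was at 56.3 ± 5.60 RPKM (SD, n = 4) in experiment 2 and at 29.1 ± 17.9 RPKM (SD, n = 6) in experiment 1.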
